A study of Mus musculus with 8 samples.

Results

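The semaphorin, plexin, neuropilin, ephrin and Eph receptor genes of mouse embryonic stem (ES) cells were described across lines that differ in their TCF/LEF transcription factors. Members were found by gene symbol and mapped by Ensembl ID to the count files. The symbols gave 56 genes among 47729 gene identifiers: 20 semaphorins, 9 plexins, 2 neuropilins, 8 ephrins, 14 Eph receptors and 3 antisense transcripts of Plxna4. The gene group was chosen by the measured counts of Sema6a, Sema3e and Efnb2, which were lower in edited lines than in WT cells. Values of these 3 genes against WT are therefore given as a description, with no test.

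RNA sequencing gave 8 libraries of the established ES-cell line E14TG2a (strain 129/Ola), 2 for each of 4 groups, after 48 h in medium with 15% serum and LIF. The study's title frames the question as whether a single TCF factor is enough for ES cells to differentiate, and the libraries here came from undifferentiated culture. Groups were taken from the sample titles. Both QT7 and QT7L1 carry, per their genotype tags, homozygous mutations in 3 of the 4 TCF/LEF genes and 1 remaining allele of the other. For QT7 the tag names TCF7L1 as the gene with 1 allele left, and for QT7L1 it names TCF7, the reverse of what the titles say, so the 2 names stand here only for the titles. QKO is mutant for both alleles of TCF7, TCF7L1, TCF7L2 and LEF1. WT carries no listed mutation. QT7 and QT7L1 together are called the single-factor lines. The replicates of QT7, QT7L1 and QKO are clones A and B, and those of WT are called biological replicates. Each edited library is thus 1 clone. The p-values rest on 1 spread per gene over all 4 groups, which also draws on other genes. It pools the spread between clones of the edited lines with that between the WT replicates.

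Semaphorins are secreted or membrane-bound cues that steer cell movement and axon growth. Plexins are their main receptors, and neuropilins are co-receptors for most secreted class 3 semaphorins and for VEGF. Ephrins are ligands held at the cell surface, by a lipid anchor in ephrin-A and by a transmembrane segment in ephrin-B. They bind Eph receptor tyrosine kinases on neighbouring cells and signal in both directions. TCF/LEF factors bind DNA and pass on the beta-catenin arm of Wnt signalling.

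The promoters of Sema3e and Efnb2, 2 of the 3 genes that led to the choice, are shown with those of Plxnd1, Sema4c and Efna3, which were lowest in QKO. Each line gives the 250 bases before the RefSeq start site in GRCm38.p6, read 5′ to 3′ on the gene's strand, and capitals mark a TCF/LEF core motif. The windows are chr5:14025026-14025275 on the plus strand for Sema3e, chr8:8661243-8661492 on the minus strand for Efnb2, chr6:115995006-115995255 on the minus strand for Plxnd1, chr1:36558382-36558631 on the minus strand for Sema4c and chr3:89322940-89323189 on the minus strand for Efna3.
Sema3e: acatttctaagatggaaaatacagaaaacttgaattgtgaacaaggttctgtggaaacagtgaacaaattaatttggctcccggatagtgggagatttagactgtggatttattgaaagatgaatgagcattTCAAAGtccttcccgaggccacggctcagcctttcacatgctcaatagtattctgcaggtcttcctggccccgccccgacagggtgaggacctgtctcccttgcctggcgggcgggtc
Efnb2: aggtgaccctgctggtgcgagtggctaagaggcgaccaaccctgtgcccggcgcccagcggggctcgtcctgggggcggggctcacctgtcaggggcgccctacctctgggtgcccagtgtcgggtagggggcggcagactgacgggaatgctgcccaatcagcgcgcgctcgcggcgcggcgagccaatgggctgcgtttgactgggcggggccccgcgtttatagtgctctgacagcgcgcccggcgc
Plxnd1: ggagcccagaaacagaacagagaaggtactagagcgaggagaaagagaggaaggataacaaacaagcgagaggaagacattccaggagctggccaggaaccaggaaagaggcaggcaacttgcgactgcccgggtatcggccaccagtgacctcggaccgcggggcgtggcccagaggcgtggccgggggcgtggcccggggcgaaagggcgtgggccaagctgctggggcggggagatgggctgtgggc
Sema4c: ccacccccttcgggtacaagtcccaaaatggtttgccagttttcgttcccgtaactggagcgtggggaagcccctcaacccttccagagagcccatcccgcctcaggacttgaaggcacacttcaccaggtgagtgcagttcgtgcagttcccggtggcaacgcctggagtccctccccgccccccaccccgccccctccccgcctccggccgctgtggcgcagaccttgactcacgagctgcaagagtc
Efna3: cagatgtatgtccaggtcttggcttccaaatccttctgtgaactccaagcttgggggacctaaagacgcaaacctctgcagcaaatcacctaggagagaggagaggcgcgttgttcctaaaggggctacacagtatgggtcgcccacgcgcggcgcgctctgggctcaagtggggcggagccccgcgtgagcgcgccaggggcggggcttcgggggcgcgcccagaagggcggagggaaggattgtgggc

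The motif searched was CTTTGA, with its reverse complement TCAAAG. Of the 56 members, 47 had an entry in the RefSeq promoter table, with 61 windows in all. The motif was found in 3 of the 61 windows (4.92%), those of Nrp2, Epha2 and Sema3e, and in 13.8% of 32851 windows of all genes. In Sema3e the first base of the motif lay 118 bases before the start. The median GC content was 64.4% in the members' windows and 52.4% in all windows. Among the printed windows GC content was 48.0% in Sema3e, 72.0% in Efnb2, 64.8% in Plxnd1, 64.4% in Sema4c and 63.6% in Efna3. A match is a run of letters and not a binding site.

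Total counts were between 31573536 and 43362627 per library, and the correlation of the log2 values of replicates was lowest in QT7 (0.9815) and highest in QT7L1 (0.9912). ES-cell markers summed to between 4780 and 5850 counts per 1000000 counted reads (CPM). Tcf7 had 16.6 and 20.9 CPM in QT7, 10.1 and 12.7 in QT7L1, 7.97 and 19.7 in QKO, and 59.6 and 61.9 in WT. Tcf7l1 had 27.4 and 22.4 CPM in QT7, 36.9 and 27.5 in QT7L1, 38.3 and 39.1 in QKO, and 73.6 and 68.8 in WT. Both genes were lower in all 6 edited libraries than in WT. Tcf7 did not pass between QKO and QT7 (0.44 ± 0.36 on the log2 scale) or QT7L1 (-0.29 ± 0.37), and Tcf7l1 was lower in QT7 than in QKO (-0.64 ± 0.15, adjusted p = 0.0137). Whole-gene counts do not show whether a transcript encodes the intact protein, so they do not settle which factor each line kept. The libraries of 1 group could stand apart: the mesoderm gene T had 9.70 CPM in WT 1 and 0.680 CPM in WT 2. Markers of primitive endoderm went the other way, with sums of 36.3 CPM in WT 1 and 87.1 CPM in WT 2.

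A count was found for 53 of the 56 members in at least 1 library, and 47 passed the filter on low counts that left 16515 genes. The 9 that did not pass were Epha3, Epha5, Epha6, Ephb1, Sema3d, Sema6d and the 3 Plxna4 antisense transcripts. The last 3 had no count in any library, which allows up to between 0.0692 and 0.095 CPM per library at this depth. A statement on members that passed does not cover these 9.

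Compared per kilobase of annotated exon, Epha2 had the highest level, with a mean of 57.0 CPM per kb over the 8 libraries. Epha2 is an Eph receptor for ephrin-A ligands that is also known from epithelia. The plexins Plxna1 and Plxnb2 came next in order, at 23.9 and 20.5 CPM per kb, followed by the ephrin-B receptor Ephb4 at 14.2 CPM per kb. The highest semaphorin was Sema4b, a membrane-bound class 4 member, at 12.9 CPM per kb, or 18.4 when the longest transcript was used as its length. With that length Plxnb2 (24.4 CPM per kb) stood above Plxna1, and Sema4b stood above Ephb4 (15.2 CPM per kb), so the order within each of these pairs depends on the length used. The highest ephrin was Efna4 at 10.4 CPM per kb, and the higher neuropilin was Nrp2 at 2.20. Of the ephrin-B genes Efnb1 had the highest mean, 1.93 CPM per kb, but in WT Efnb2 at 2.48 stood beside Efnb1 at 2.4. Receptors of both systems were thus at the top, and of Epha2, Plxna1, Plxnb2, Ephb4, Sema4b and Efna4 only Plxnb2 passed the test between QT7 or QT7L1 and QKO.

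**Figure D1:**
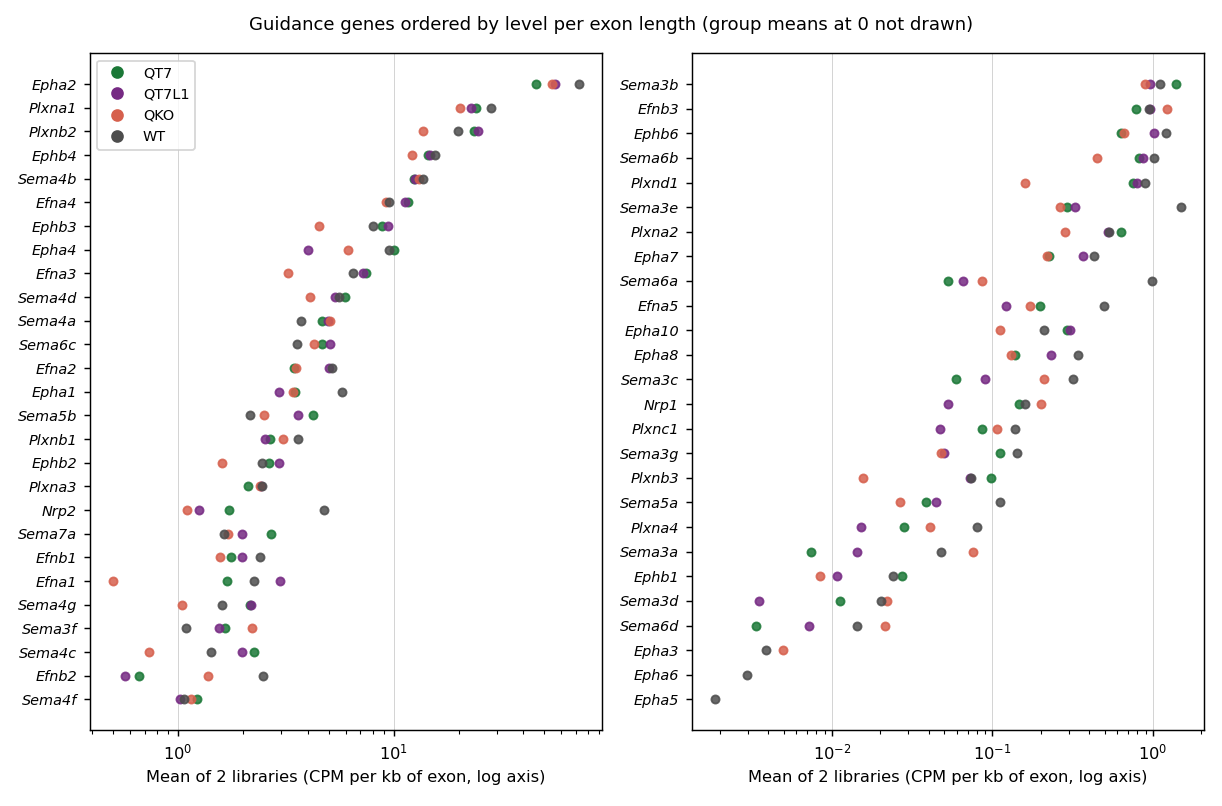
Level of each member with a count, in CPM per kilobase of annotated exon on a log axis, ordered by the mean over the 8 libraries. Each point is a group's mean of 2 libraries, coloured QT7, QT7L1, QKO and WT, and Epha2 leads with a mean of 57.0 CPM per kb, ahead of Plxna1, Plxnb2, Ephb4 and Sema4b.

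**Figure D2:**
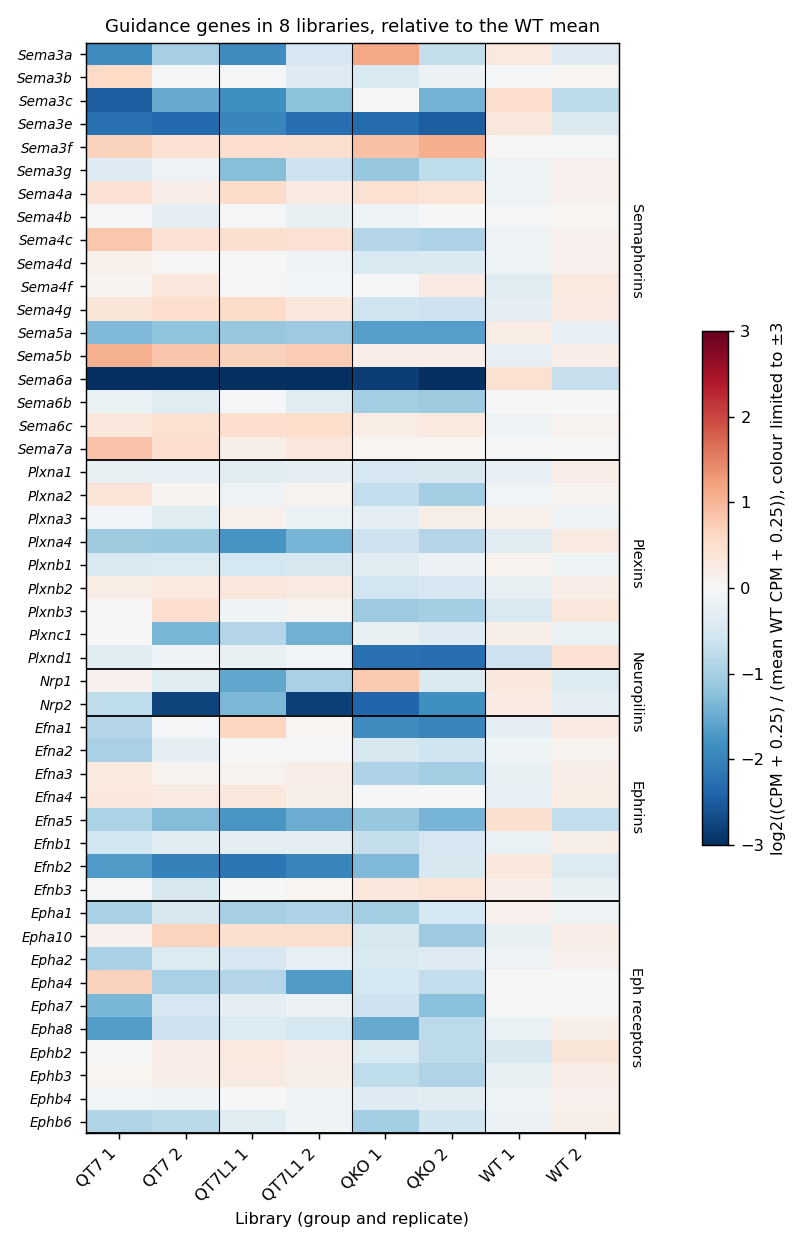
Level of the 47 tested members in each of the 8 libraries as log2 of CPM plus 0.25 over the WT mean plus 0.25, with colours limited at 3 in either direction and libraries ordered QT7, QT7L1, QKO and WT. Sema6a and Sema3e are below WT in all 6 edited libraries, while Plxnd1, Sema4c and Efna1 are lowest in the 2 QKO libraries.

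Sema6a and Sema3e were low in all 6 edited libraries, with or without a remaining TCF allele, while Efnb2 was lower in QT7 and QT7L1 than in QKO. Sema6a, a transmembrane semaphorin that binds plexin-A receptors, lies on chromosome 18 (47235598 to 47368870, minus strand). It had 0.612 and 0.322 CPM in QT7, 0.575 and 0.579 in QT7L1, 1.02 and 0.499 in QKO, and 12.1 and 5.31 in WT. All 6 edited libraries were below both WT libraries, and the WT libraries lay far apart. Because these are bulk libraries, fewer cells of a type and less RNA per cell cannot be told apart. On the log2 scale the fold against WT was -4.22 ± 0.52 (SE) in QT7, -3.91 ± 0.51 in QT7L1 and -3.52 ± 0.50 in QKO. Without WT 1, the WT library with the higher Sema6a, it was -3.51 in QT7, -3.19 in QT7L1 and -2.80 in QKO. Without QKO 1 it was -4.13 in QKO.

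Sema3e is a secreted semaphorin that binds Plxnd1 directly, without a neuropilin, and lies on chromosome 5 (14025276 to 14256689, plus strand). It had 2.78 and 2.60 CPM in QT7, 3.45 and 2.65 in QT7L1, 2.61 and 2.30 in QKO, and 17.7 and 10.3 in WT. The edited libraries formed a narrow band below both WT libraries. The log2 fold against WT was -2.37 ± 0.29 in QT7, -2.19 ± 0.29 in QT7L1 and -2.51 ± 0.29 in QKO. Without WT 1 it was -1.93 in QT7, -1.75 in QT7L1 and -2.07 in QKO. Without WT 2 it was -2.71 in QT7, -2.53 in QT7L1 and -2.85 in QKO.

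Efnb2, a transmembrane ephrin and ligand of Ephb4, lies on chromosome 8 (8617434 to 8661242, minus strand). It had 5.03 and 3.98 CPM in QT7, 3.60 and 4.17 in QT7L1, 6.64 and 12.2 in QKO, and 21.2 and 12.8 in WT. The highest edited library, QKO 2, came close to the lower WT library. The log2 fold against WT was -1.91 ± 0.33 in QT7, -2.12 ± 0.34 in QT7L1 and -0.84 ± 0.32 in QKO. Without WT 1 it was -1.51 in QT7, -1.72 in QT7L1 and -0.44 in QKO. In QKO it was -0.49 without QKO 1 and -1.36 without QKO 2, so its size depends on single libraries.

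Between the edited lines Sema6a and Sema3e did not pass the test. Sema6a differed from QKO by -0.70 ± 0.55 in QT7 and -0.39 ± 0.55 in QT7L1 on the log2 scale, and Sema3e by 0.13 ± 0.29 and 0.32 ± 0.29. A test that misses the threshold does not show that these lines are alike for Sema6a and Sema3e. Efnb2 was lower than in QKO by -1.07 ± 0.33 in QT7 and -1.28 ± 0.33 in QT7L1. Without QKO 2 the Efnb2 folds were -0.56 in QT7 and -0.77 in QT7L1, and neither passed. The Efnb2 call was also lost without either QT7 or QT7L1 library and in a fit of only the 2 groups in QT7, and without either QT7L1 library in QT7L1. Since the libraries are among those on which Efnb2 was chosen, the fall in QT7 and QT7L1 is a description.

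**Figure D3:**
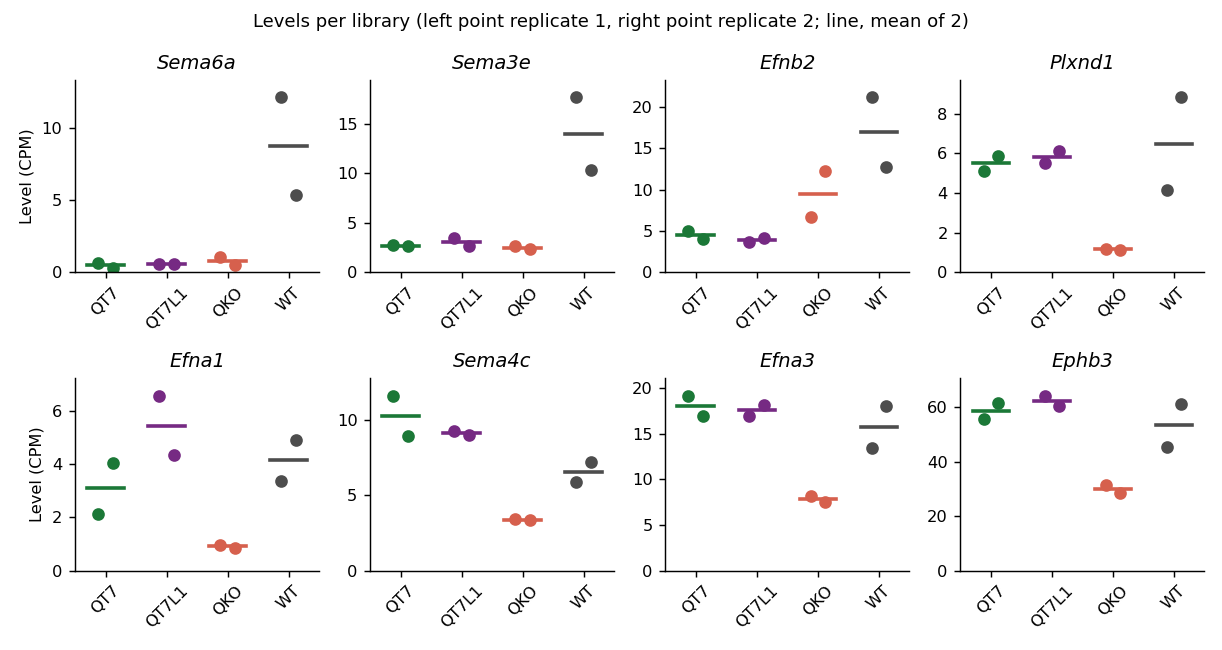
CPM of 8 members in each library, with 1 point per library, a line at each mean of 2 and groups in the order QT7, QT7L1, QKO and WT. Sema3e sits between 2.30 and 3.45 CPM in the 6 edited libraries and at 17.7 and 10.3 CPM in WT, while Plxnd1 is at 1.18 and 1.14 CPM in QKO and above 4 CPM in the other 6.

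The main comparisons ask what differs between QKO and cells with 1 TCF allele. They leave out WT but share the edited libraries behind the choice, so Efnb2 is counted in them as a description. In QT7 against QKO, 14 of the 47 members tested were higher and 1, Efnb2, was lower (edgeR quasi-likelihood test, adjusted p under 0.05 over all genes). Of all genes tested 14.8% were higher and 12.1% lower, 26.9% in all. Members called were 31.9% of those tested, of which 29.8% were higher and 2.13% lower. Their median log2 fold was 0.19, and that of all genes 0.05. In QT7L1 against QKO, 14 were higher and 2, Efnb2 and Nrp1, were lower, with 15.9% of all genes higher, 13.9% lower and 29.7% called. That was 34.0% of the members tested, with a median log2 fold of 0.26 against 0.02 for all genes. The share called was thus near that of all genes, with most called members higher. Without Efnb2, Sema3e and Sema6a, 14 of 44 members were higher and 0 lower in QT7 (31.8% called). In QT7L1, 14 were higher and 1 lower (34.1% called). Both comparisons use the same 2 QKO libraries, so they are not independent.

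Single libraries moved these counts. Without QKO 2, 6 members passed in QT7 against QKO, when 8.95% of all genes did, and 8 passed in QT7L1 against QKO, when 10.7% did. In QT7L1 against QKO, 8 members also passed without QT7L1 1, when 14.4% of all genes did, and 8 without QT7L1 2, when 12% did. Calls over all genes thus fell with those of the members. Efna3, Ephb3, Plxnb2, Plxnd1, Sema4c and Sema4g passed in both comparisons in all 13 alternative analyses, and Efna1 did so in QT7L1 against QKO.

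Among receptors, Plxnd1, Plxnb2, Plxna2 and Plxnb3 were higher in both single-factor lines than in QKO. Plxnd1, the receptor of Sema3e known from blood vessels and neurons, lies on chromosome 6 (115954811 to 115995005, minus strand). It had 5.13 and 5.89 CPM in QT7, 5.54 and 6.12 in QT7L1, 1.18 and 1.14 in QKO, and 4.13 and 8.84 in WT. Both QKO libraries were well below the other 6, which overlapped one another. The log2 fold over QKO was 2.25 ± 0.35 in QT7 (adjusted p = 0.00228) and 2.33 ± 0.35 in QT7L1 (adjusted p = 0.00174). So the ligand Sema3e was low in all edited lines, while its receptor was low in QKO and not in QT7 or QT7L1.

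Markers of endothelial cells, 7 genes of which Pecam1 made up most, summed to 181 and 128 CPM in QT7, 112 and 112 in QT7L1, 79.9 and 64.6 in QKO, and 74.2 and 100 in WT. The defining endothelial gene Cdh5 had 1.71 and 2.69 CPM in QT7, 0.969 and 1.46 in QT7L1, 1.12 and 1.77 in QKO, and 0.876 and 2.99 in WT. Emcn reached at most 0.031 CPM. Of the 6 endothelial markers tested, Pecam1 was higher than in QKO in QT7 (1.09 ± 0.21 on the log2 scale, adjusted p = 0.00673) and in QT7L1 (0.71 ± 0.20, adjusted p = 0.0308). Tek was higher in QT7 (1.88 ± 0.44, adjusted p = 0.0157), Flt1 was higher in QT7L1 (0.99 ± 0.34, adjusted p = 0.0469) and Kdr was lower in QT7L1 (-1.42 ± 0.33, adjusted p = 0.0102). Cdh5 and Tie1 passed in neither. The sum, which is mostly Pecam1, was higher in QT7 and QT7L1 than in QKO, as Plxnd1 was. Cdh5 overlapped QKO in both lines. In WT the sum overlapped that of QKO, while Plxnd1 (4.13 and 8.84 CPM) was above QKO (1.18 and 1.14 CPM). Whether endothelial cells were present, or had a part in the Plxnd1 result, was not tested.

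Plxnb2, a plexin-B that binds class 4 semaphorins, had 179 and 187 CPM in QT7, 195 and 186 in QT7L1, 103 and 109 in QKO, and 132 and 175 in WT. The log2 fold over QKO was 0.80 ± 0.13 in QT7 (adjusted p = 0.0023) and 0.85 ± 0.13 in QT7L1 (adjusted p = 0.00156). Plxna2, a plexin-A receptor of Sema6a, had 12.1 and 9.75 CPM in QT7, 8.18 and 9.84 in QT7L1, 5.37 and 4.38 in QKO, and 8.61 and 9.75 in WT. Both receptors were lowest in QKO. The log2 fold of Plxna2 over QKO was 1.16 ± 0.21 in QT7 (adjusted p = 0.0041, or 0.0501 without QKO 2) and 0.89 ± 0.21 in QT7L1 (adjusted p = 0.0119, lost without QKO 2 or QT7L1 2). Plxnb3 was scarce, with 3 and 4 counts in the QKO libraries, and its log2 fold of 2.60 ± 0.61 in QT7 (adjusted p = 0.0122) and 2.16 ± 0.64 in QT7L1 (adjusted p = 0.0281) rests on few reads. Leaving out either QKO library ended both Plxnb3 calls, and for QT7L1 so did DESeq2 and leaving out either QT7L1 library.

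The class 4 semaphorins Sema4c, Sema4g and Sema4d rose in both single-factor lines. Sema4c, a ligand of Plxnb2, had 11.6 and 8.95 CPM in QT7, 9.24 and 8.98 in QT7L1, 3.41 and 3.33 in QKO, and 5.85 and 7.21 in WT. All 4 single-factor libraries were above both WT libraries. The log2 fold over QKO was 1.61 ± 0.22 in QT7 (adjusted p = 0.00137) and 1.43 ± 0.22 in QT7L1 (adjusted p = 0.00172). The gene D430040D24Rik overlaps Sema4c on the other strand and had at most 0.092 CPM. Sema4g, another class 4 semaphorin, had 17.7 and 19.8 CPM in QT7, 20.5 and 17.3 in QT7L1, 9.06 and 8.90 in QKO, and 11.3 and 16.3 in WT. Its log2 fold over QKO was 1.06 ± 0.20 in QT7 (adjusted p = 0.00435) and 1.07 ± 0.20 in QT7L1 (adjusted p = 0.00366). Sema4d, a ligand of Plxnb1 also known from immune cells, had a smaller fold, 0.54 ± 0.12 in QT7 (adjusted p = 0.0115) and 0.38 ± 0.13 in QT7L1 (adjusted p = 0.0436). The Sema4d call in QT7 was lost without either QKO library. In QT7L1 it was lost with DESeq2, with RLE size factors, with the replicate block and without either library of QKO or QT7L1. Sema4b did not pass, at -0.08 ± 0.12 in QT7 and -0.06 ± 0.12 in QT7L1.

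Of the other semaphorins, Sema5b and Sema6b, both transmembrane, were higher than in QKO in both single-factor lines. Sema5b had 32.5 and 27.3 CPM in QT7, 24.8 and 26.1 in QT7L1, 17.7 and 17.7 in QKO, and 12.9 and 17.8 in WT. Its log2 fold over QKO was 0.76 ± 0.17 in QT7 (adjusted p = 0.00968) and 0.53 ± 0.17 in QT7L1 (adjusted p = 0.0394). Sema6b had 3.47 and 3.04 CPM in QT7, 3.82 and 3.05 in QT7L1, 1.8 and 1.77 in QKO, and 4.04 and 3.94 in WT. In the single-factor lines Sema5b was above both WT libraries and Sema6b below both. The fold of Sema6b was 0.86 ± 0.25 (adjusted p = 0.0284) in QT7 and 0.94 ± 0.25 (adjusted p = 0.0192) in QT7L1. The Sema5b and Sema6b calls were lost in each comparison without either QKO library. They were also lost for Sema6b without QT7 1 or QT7L1 1 and, in QT7, in a fit of only the 2 groups, and for Sema5b in QT7L1 without either QT7L1 library. Sema7a, a lipid-anchored semaphorin, passed in QT7 (0.66 ± 0.21, adjusted p = 0.039) and not in QT7L1 (0.21 ± 0.21, adjusted p = 0.478), and QT7 against QT7L1 gave 0.45 ± 0.21 (adjusted p = 0.46). The Sema7a call was lost without either WT, QKO or QT7L1 library without QT7 1 and in a fit of only the 2 groups, with adjusted p up to 0.168.

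Among ephrins, Efna1 and Efna3 rose in both single-factor lines, and Efna4 beside them on chromosome 3 did not pass. Efna3 had 19.2 and 17.0 CPM in QT7, 17.0 and 18.2 in QT7L1, 8.19 and 7.51 in QKO, and 13.4 and 18.1 in WT. Its log2 fold over QKO was 1.20 ± 0.18 in QT7 (adjusted p = 0.00203) and 1.16 ± 0.18 in QT7L1 (adjusted p = 0.00202). The antisense gene Gm15998 overlaps Efna3 and had at most 0.538 CPM. Efna1 had 2.14 and 4.03 CPM in QT7, 6.57 and 4.32 in QT7L1, 0.962 and 0.859 in QKO, and 3.35 and 4.92 in WT. QKO was lowest for both genes. The Efna1 fold was 1.76 ± 0.38 in QT7 (adjusted p = 0.00892, or 0.0754 without QKO 2) and 2.58 ± 0.39 in QT7L1 (adjusted p = 0.00167).

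In the GRCm38 annotation Efna1 lies 32.8 kb from Efna3, and Efna3 lies 10.4 kb from Efna4. Efna4 had 18.9 and 18.1 CPM in QT7, 18.9 and 17.2 in QT7L1, 14.7 and 14.7 in QKO, and 12.8 and 17.7 in WT. Its log2 fold over QKO was 0.33 ± 0.17 in QT7 (adjusted p = 0.175) and 0.30 ± 0.17 in QT7L1 (adjusted p = 0.214). Elsewhere, Sema3e on chromosome 5 lies 423 kb from Sema3a and 3320 kb from Sema3c, neither of which passed in any comparison.

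Of the Eph receptors, Ephb3 and Epha10 were higher in both single-factor lines. Ephb3, a receptor of ephrin-B known as a Wnt target in the gut, had 55.5 and 61.4 CPM in QT7, 64.2 and 60.2 in QT7L1, 31.5 and 28.6 in QKO, and 45.5 and 61.2 in WT. Its log2 fold over QKO was 0.96 ± 0.15 in QT7 (adjusted p = 0.00203) and 1.05 ± 0.15 in QT7L1 (adjusted p = 0.00131). Ephb2, a close relative, had 31.4 and 35.5 CPM in QT7, 38.1 and 35.7 in QT7L1, 22.5 and 17.7 in QKO, and 22.2 and 39.6 in WT. The single-factor lines were above QKO for both genes, and the WT libraries of Ephb2 lay far apart. Ephb2 passed in QT7L1 (0.88 ± 0.24, adjusted p = 0.0261) and missed the threshold in QT7 (0.73 ± 0.24, adjusted p = 0.0523). Its call was lost without QKO 2 or either QT7L1 library. Epha10, which is held to lack kinase activity, had 1.66 and 2.53 CPM in QT7, 2.21 and 2.19 in QT7L1, 1.02 and 0.582 in QKO, and 1.25 and 1.77 in WT. It had a log2 fold over QKO of 1.39 ± 0.38 in QT7 (adjusted p = 0.0216) and 1.46 ± 0.38 in QT7L1 (adjusted p = 0.017). The Epha10 call was lost in each comparison without QKO 2, in QT7 without QT7 2 and in a fit of only the 2 groups, and in QT7L1 without either QT7L1 library.

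**Figure D4:**
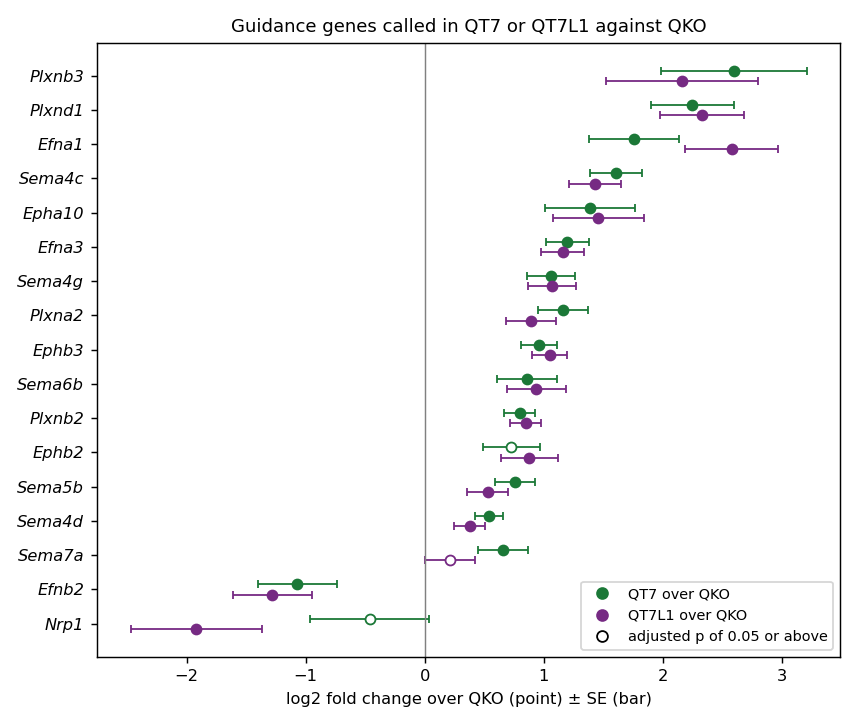
Log2 fold change over QKO for QT7 and QT7L1, with standard errors, for the members that passed in either comparison. Open points had an adjusted p of 0.05 or above. Plxnb3, Plxnd1 and Efna1 are the furthest right, and Efnb2 and Nrp1 lie left of 0. Efnb2 is among the genes behind the choice, so its folds are a description.

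Nrp1, a co-receptor for class 3 semaphorins and VEGF, was the other member called lower. It had 1.71 and 1.15 CPM in QT7, 0.363 and 0.670 in QT7L1, 2.85 and 1.08 in QKO, and 2.00 and 1.11 in WT. The log2 fold over QKO was -1.92 ± 0.55 in QT7L1 (adjusted p = 0.0279) and was -1.05 without QKO 1, where the call was lost, as it was without either QT7L1 library. QKO 1 also had the highest Sema3a, and more Sema3c than QKO 2, both secreted class 3 ligands of neuropilins. Sema3c had 0.204 and 0.644 CPM in QT7, 0.454 and 0.822 in QT7L1, 2.30 and 0.693 in QKO, and 3.35 and 1.22 in WT. The fibroblast collagen gene Col1a1 had 2.58 and 13.2 CPM in QT7, 3.03 and 6.85 in QT7L1, 51.0 and 5.82 in QKO, and 38.6 and 18.2 in WT. Sema3c and Col1a1 were both highest in QKO 1 and WT 1. Of the 7 fibroblast markers tested, Col1a1, Col1a2, Col3a1 and Thy1 did not pass against QKO, while Mmp2, Pdgfrb and Fbln1 were higher in both single-factor lines. Mmp2 had 52.5 and 51.0 CPM in QT7, 36.1 and 52.8 in QT7L1, 16.4 and 14.2 in QKO, and 31 and 44.4 in WT. The Mmp2 log2 fold over QKO was 1.76 ± 0.21 in QT7 and 1.54 ± 0.21 in QT7L1, that of Pdgfrb was 1.49 ± 0.36 in QT7 and 1.47 ± 0.36 in QT7L1, and that of Fbln1 was 0.49 ± 0.14 in QT7 and 0.62 ± 0.14 in QT7L1. The 10 fibroblast markers summed to 138 and 182 CPM in QT7, 138 and 165 in QT7L1, 173 and 92.2 in QKO, and 156 and 156 in WT, with Lum at 0 in all libraries. The part of fibroblasts in the Nrp1 and Sema3c values was not tested.

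The clones of 1 line could differ more than the lines. Nrp2, a co-receptor that binds Sema3f and VEGF-C, had 33.0 and 7.96 CPM in QT7, 21.8 and 7.80 in QT7L1, 10.5 and 15.5 in QKO, and 66.8 and 45.4 in WT. Epha4, a receptor of both ephrin classes, had 123 and 38.9 CPM in QT7, 41.2 and 23.5 in QT7L1, 52.6 and 45.9 in QKO, and 75.1 and 77.4 in WT. In both genes clone A exceeded clone B in QT7 and in QT7L1, and neither gene passed in any comparison. For Nrp2 the log2 fold over QKO was 0.65 ± 0.81 in QT7 and 0.19 ± 0.82 in QT7L1.

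No member passed the test between QT7 and QT7L1. In edgeR 0 of 47 members passed, when 0.00606% of all genes did, which is 1 gene. DESeq2 called 0 members. At an unadjusted p under 0.05 there were 4 members, Nrp1 higher in QT7 (1.46 ± 0.56) and Efna1 (-0.82 ± 0.35), Efna2 (-0.53 ± 0.24) and Ephb6 (-0.67 ± 0.27) lower, with adjusted p of at least 0.389. Without QT7 2, 4 members passed: Efna1 at -1.34, Efna2 at -0.96, Epha2 at -0.61 and Epha4 at 1.92. In the same fit 8.45% of all genes passed, so the members' share was that of all genes. With 2 clones per line the standard errors of these folds do not show that the lines are alike.

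Against WT, the rule used these contrasts, and the counts are given without Sema6a, Sema3e and Efnb2 and read no further. In QKO against WT, 1 of 44 members was higher and 17 were lower, beside 11.7% and 14.7% of all genes and 26.4% in all. In QT7 against WT 1 was higher and 1 lower, beside 2.37% and 2.25% (4.62% in all), and in QT7L1 against WT 0 passed, beside 0.745%. The single member higher in QKO than in WT was Sema3f, a secreted ligand of Nrp2. Sema3f had 9.37 and 7.75 CPM in QT7, 8.12 and 8.01 in QT7L1, 10.6 and 12.4 in QKO, and 5.85 and 5.51 in WT. It was highest in QKO and lowest in WT, and its call was lost without QKO 2. In QT7 against WT, Sema5b was higher (0.96 ± 0.17) and Sema5a, its class 5 relative, lower (-1.52 ± 0.33). The Sema5b call was lost without WT 1 and in a fit of only the 2 groups. The Sema5a call was lost in that fit, with DESeq2 and without any 1 library but QT7 2. Without QT7 2, 10 members passed in QT7 against WT, when 11.6% of all genes did. In QT7L1 against WT 4 members passed without QT7 1, when 3.13% of all genes did, and 4 without QT7 2, when 3.02% did. Sema5a had 0.689 and 0.759 CPM in QT7, 0.818 and 0.853 in QT7L1, 0.496 and 0.499 in QKO, and 2.47 and 1.72 in WT.

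Sema5a, like Sema6a, Sema3e and Efnb2, was thus below both WT libraries in all edited lines. So were Efna5, Efnb1, Epha1, Epha2, Epha7, Epha8, Nrp2, Plxna4, Plxnb1 and Sema6b. The gene Zyx overlaps Epha1 on the other strand and had between 21.3 and 47.5 CPM, while Epha1 had between 11.1 and 25 CPM. With the strand setting of HTSeq not given, the part of Zyx reads in the Epha1 values was not tested. Over the 47 members tested, 14 had all 6 edited libraries below both WT libraries (8.14% of all genes) and 4 had all above (6.85%). Both QKO libraries were below the other 6 for 15 members (21.5% of all genes) and above for Efnb3 and Sema3f (19.6%). The first pattern includes the 3 genes behind the choice and uses the values behind it, so its count is a description and is read no further. Of the 44 members other than those 3, 18 were called in QKO against WT with all libraries. Without QKO 1 there were 7, when 13.2% of all genes passed, without QKO 2 there were 6, when 8.09% did, and without WT 2 there were 7, when 7.93% did.

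The genes that work with these ligands and receptors were taken from 3 lists of 102 genes, of which 92 were tested. In QT7 against QKO, 23 were higher and 5 lower, and in QT7L1 against QKO 26 were higher and 7 lower. That was 30.4% called in QT7, beside 26.9% of all genes, and 35.9% in QT7L1, beside 29.7%, so the totals were near those of all genes. The median log2 fold was 0.22 in QT7 and 0.06 in QT7L1. Without QKO 2 the genes called were 8 in QT7 and 9 in QT7L1, and in QT7L1 they were 13 without QT7L1 1 and 16 without QT7L1 2. Of 43 semaphorin partners, 8 rose and 4 fell in QT7, and 13 rose and 4 fell in QT7L1, or 27.9% called in QT7 and 39.5% in QT7L1. Vegfa, a neuropilin ligand, had 47.1 and 68.5 CPM in QT7, 83.1 and 73.9 in QT7L1, 30.1 and 19.0 in QKO, and 49.8 and 56.5 in WT, a log2 fold over QKO of 1.23 ± 0.23 in QT7 and 1.68 ± 0.24 in QT7L1. Mst1r, a receptor kinase that associates with plexin-B, had a log2 fold of 2.76 ± 0.49 in QT7 and 2.91 ± 0.50 in QT7L1. Cfl1, the actin-severing protein cofilin, had a log2 fold of -0.69 ± 0.09 in QT7 and -0.57 ± 0.09 in QT7L1. Vegfa, Mst1r, Cfl1, Src and Unc5a kept their calls in all 13 alternatives. Of 29 ephrin partners, 9 rose in QT7 (31%) and 7 in QT7L1 (24.1%), and 0 fell. Among them was the kinase Src, at 0.77 ± 0.11 in QT7 and 0.74 ± 0.11 in QT7L1.

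Of 20 genes from other guidance systems, 6 rose and 1 fell in QT7, and 6 rose and 3 fell in QT7L1, or 35% called in QT7 and 45% in QT7L1, beside 26.9% of all genes in QT7 and 29.7% in QT7L1. Unc5a, a netrin receptor, had 6.51 and 8.90 CPM in QT7, 8.45 and 9.26 in QT7L1, 1.92 and 1.25 in QKO, and 2.38 and 4.01 in WT. Its log2 fold over QKO was 2.28 ± 0.32 in QT7 (adjusted p = 0.00167) and 2.48 ± 0.32 in QT7L1 (adjusted p = 0.0011), with both single-factor lines above WT. Neo1, a netrin and RGM receptor, had a log2 fold of 0.90 ± 0.18 in QT7 and 0.57 ± 0.18 in QT7L1. The Neo1 call in QT7 was lost without QKO 2, and in QT7L1 without any 1 library of WT, QKO or QT7L1. Ntn1, the netrin ligand, was lower in QT7 (-0.76 ± 0.16, adjusted p = 0.0075, or 0.0575 without QKO 2) and missed the threshold in QT7L1 (-0.42 ± 0.15, adjusted p = 0.0681).

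In the authors' deposited table of QT7 against QKO, 13 members had an adjusted p under 0.05, and 12 of these were called here. For QT7L1 against QKO the authors' deposited table gave 14, all of which were called here, and for QT7 against QT7L1 it gave 0. Against WT their tables gave 18 in QKO, 7 in QT7 and 5 in QT7L1, counts that include Sema6a, Sema3e and Efnb2. Of the others, Ephb2 in QKO, Epha1, Epha2 and Sema3c in QT7, and Epha1 and Sema5b in QT7L1 did not pass here. Calls made here and not there were Plxnb3, Sema6b and Sema7a in QT7 against QKO, and Plxnb3 and Sema4d in QT7L1 against QKO. Against WT they were Efna5, Ephb4, Ephb6 and Plxnb3 in QKO and Sema5a in QT7.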

How the data were processed

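Per the labels' protocols, mRNA libraries were prepared with the Illumina TruSeq stranded kit, starting from 250 ng of RNA. The submitters' processing notes name bcl2fastq 1.8.4, the aligner STAR 2.4.0f1, the build mm10 (GRCm38), HTSeq and DESeq2 2.1.8.3. For HTSeq neither the version nor the strand setting is given in the sources used here. Each library's deposited file gives whole-number counts by Ensembl ID. The authors' deposited comparison tables hold mean normalised signal, log2 fold changes with errors, a test score and p-values, and were used for gene symbols and for comparison only.

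Counts were tested with edgeR 4.0.16 (R 4.3.3): TMM scaling, the default low-count filter (16515 genes), 1 mean per group over all 8 libraries (4 residual degrees of freedom), the robust quasi-likelihood test and Benjamini-Hochberg adjustment over all genes, with a threshold of 0.05. CPM values use TMM-scaled library sizes, and standard errors come from the log2 fold and its F statistic. Levels between genes were compared per kilobase of GENCODE exon. Alternatives were DESeq2 1.42.0, RLE size factors, no filter, only the 2 groups compared, a replicate block, and each library left out. The script was tested on simulated data. Floors of 3 counts cover counting error only.

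Members, lists and tests were chosen with earlier results of these data known. Per-library values were given for Sema6a, Sema3e and Efnb2, for up to 8 called members per comparison with the largest fold and a mean of at least 1 CPM, and for up to 4 called genes of each partner list with the smallest adjusted p. The per-library values of Plxnb2, Ephb2, Ephb3, Epha4, Efna4, Nrp2 and Sema3c, and the named cell markers, were chosen after their values were seen.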

Additional observations from a re-analysis of the deposited data

How the results depend on the processing

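Direction never changed for a called member under the alternatives. For the guidance genes, leaving out 1 library gave between 6 and 16 calls in QT7 against QKO, between 8 and 20 in QT7L1 against QKO, between 6 and 25 in QKO against WT, between 0 and 4 in QT7 against QT7L1 (0 with all libraries), between 0 and 10 in QT7 against WT and between 0 and 4 in QT7L1 against WT. For the partner lists the ranges were 8 to 29, 9 to 38, 9 to 44, 0 to 14, 0 to 13 and 0 to 7 in the same order. With no low-count filter 2 members passed in QT7 against QT7L1, 13 in QT7 against WT and 14 in QT7L1 against WT, and 9, 17 and 13 partner genes did. DESeq2 gave 5 members in QT7 against WT and 5 in QT7L1 against WT, and 4 partner genes in QT7 against QT7L1, 14 in QT7 against WT and 6 in QT7L1 against WT. Fits to only the 2 groups compared gave 0 members in QT7 against WT and 4 in QT7L1 against WT, with 3 and 8 partner genes. The cause was not tested.

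Same-numbered libraries were treated as unpaired in the main fit. The correlation of their deviations was between -0.21 and 0.16, which does not show whether they shared any handling. With the replicate block 15 members passed in QT7 against QKO, 15 in QT7L1 against QKO and 20 in QKO against WT, and 4 partner genes in QT7L1 against WT, where 1 did without it. With 2 libraries per group, differences that are small beside the spread between libraries may have been missed.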
